A study of Mus musculus with 12 samples.

Results

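The prostaglandin genes of whole mouse lung were followed with NanoString nCounter, an assay that counts single molecules of RNA through barcoded probes and needs no amplification, on its innate immune panel. The members are the panel's rows named exactly Ptgs1, Ptgs2, Hpgds, Hpgd, Ptger2 and Ptgdr2, which are 6 of 734 endogenous probes, and all 6 passed the filter on low counts. The libraries came from 12 mice in 3 groups, taken from the sample names. KO_DRA (n = 5) held Chil4-deficient mice given DRA allergens, B6_DRA (n = 5) their wild type littermates given the same allergens, and B6_PBS (n = 2) wild type mice given PBS. Mice of every group were dosed through the nose 2 times per week for 8 weeks, and RNA was taken from 1 lung lobe. The labels do not expand DRA and give no age. They call the deficient mice KD in one place and KO in another and do not name the part of Chil4 that was altered. A group of Chil4-deficient mice without allergen was not analysed here. The libraries are numbered 1 to 12 across the groups.

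Prostaglandins are lipid signals made from arachidonic acid. The cyclooxygenases encoded by Ptgs1 and Ptgs2 make the common precursor PGH2, which Hpgds, the haematopoietic prostaglandin D synthase, turns into PGD2. Hpgd encodes 15-hydroxyprostaglandin dehydrogenase, which inactivates PGE2 and related prostaglandins and is abundant in lung, the organ that clears much of the prostaglandin in blood. Ptger2 encodes EP2, a PGE2 receptor, and Ptgdr2 encodes CRTH2, a PGD2 receptor found on Th2 cells, type 2 innate lymphoid cells and eosinophils.

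Counts per library ran from 320290 to 673201, and 2.79% to 43.6% of them fell on only 3 genes, Chil3, Chil4 and Retnla. Levels are therefore given as CPM, counts scaled to a common library total after TMM correction, which sets libraries against the bulk of the probes. A CPM value can be compared between libraries for 1 probe but not between probes, because probes bind with different strength. No pair of libraries in a group agreed within sampling noise, since even the most alike pair, B6_PBS 1 and 2, reached 5.27 in chi-square over its degrees of freedom. Chil4, the targeted gene, gave 5676 to 24313 counts in KO_DRA 9 to 12, whereas 111850 were counted in the library labelled KO_DRA 8, more than in any other. B6_DRA gave 13020 to 89957, with the lowest value in B6_DRA 5, and B6_PBS gave 5121 and 4406. The main results that rest on the library labelled KO_DRA 8 or on B6_DRA 5 are given with and without it.

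Allergen exposure in wild type lung went with more Ptgs1 and Hpgds RNA and less Hpgd RNA, while Ptgs2, Ptger2 and Ptgdr2 did not pass the test. Of the 6 genes, 2 were called higher in B6_DRA than in B6_PBS, against 24.1% of the 665 probes tested, and 1 was called lower, against 17.7%. The same shares stand beside the counts of marker and eicosanoid genes called in this comparison below. The median log2 fold change was 0.11 over the 6 genes and 0.0060 over all probes tested. In whole lung, fewer cells of a type and less RNA per cell cannot be told apart. In the plot of CPM by library the B6_DRA points of Ptgs1 and Hpgds lie above both B6_PBS points and those of Hpgd below them. With only 2 B6_PBS libraries such separation is easily reached. Its share over all probes is not given, so here and below it only describes the libraries. Calls are at an adjusted p under 0.05 in edgeR's quasi-likelihood test, Benjamini-Hochberg adjusted over all probes tested.

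Between the allergen-treated groups none of the 6 genes passed the test. None of the 665 probes did either, so the share called was 0% higher and 0% lower, while 84 had an unadjusted p under 0.05 and DESeq2 called 1. The 6 genes had a median log2 fold change of -0.018 in KO_DRA against B6_DRA, beside 0.0073 over all probes. Without the library labelled KO_DRA 8 the test called 4.52% of 664 probes higher and 13.6% lower, and again none of the 6. Against B6_PBS, where genotype and treatment differ together, KO_DRA had 3.01% of probes called higher and 0% lower, and none of the 6 were among them. Without the library labelled KO_DRA 8 those shares were 1.36% and 0%, again with none of the 6.

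Taken as group means, KO_DRA lay between B6_DRA and B6_PBS for 5 of the 6 genes. B6_DRA was highest and B6_PBS lowest for Ptgs1, Hpgds and Ptger2, and B6_PBS was highest and B6_DRA lowest for Hpgd and Ptgdr2. The share of all probes with KO_DRA between the others is not given here, so this order is not a result particular to these genes. Without the library labelled KO_DRA 8 the KO_DRA means kept this order. They were then 1188 (Ptgs1), 64.0 (Hpgds), 72.5 (Ptger2), 11781 (Hpgd) and 41.6 CPM (Ptgdr2). For Ptgs2 the means were 227 ± 28.6 CPM in KO_DRA, 212 ± 78.8 CPM in B6_DRA (SD, n = 5 each) and 224 ± 37.6 CPM in B6_PBS (SD, n = 2). The comparisons share libraries, and for none of the 6 genes did KO_DRA pass the test against either neighbour in this order.

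**Figure D1:**
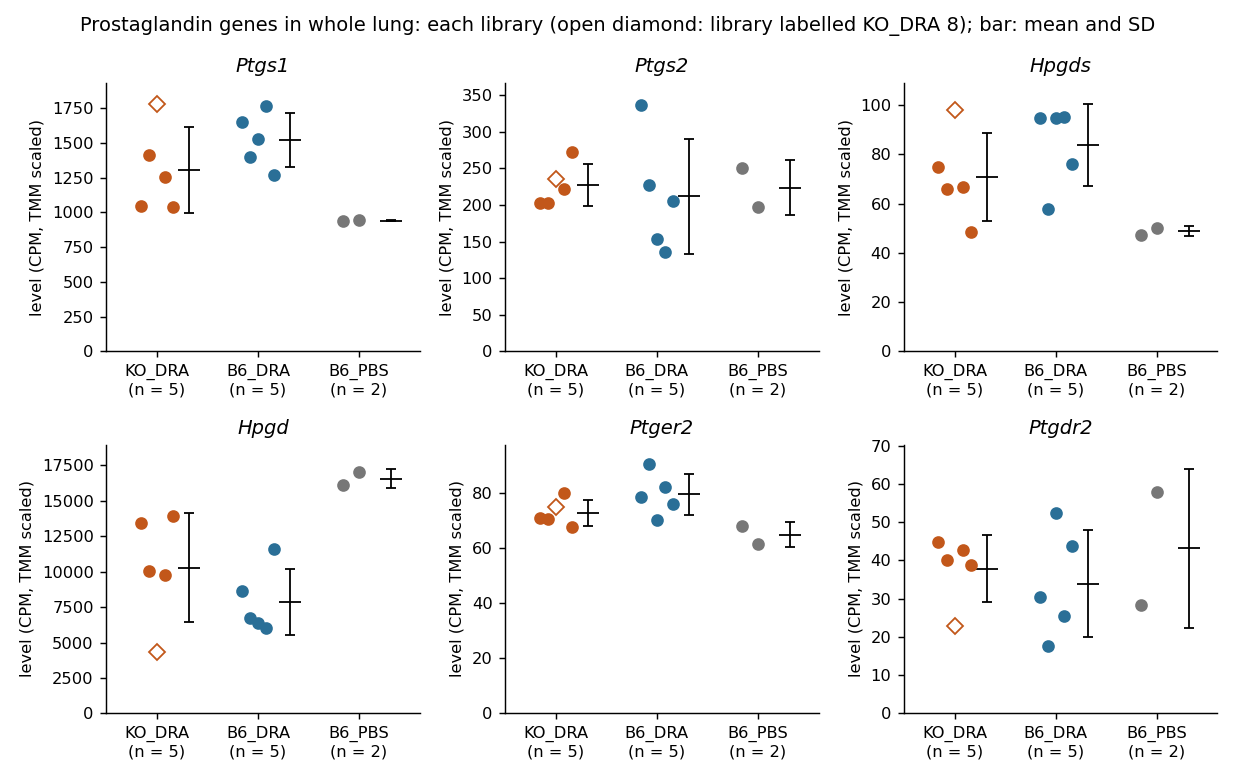
Level of each gene in CPM (linear axis from 0) in every library of KO_DRA (n = 5), B6_DRA (n = 5) and B6_PBS (n = 2), with the mean and SD beside the points; the open diamond is the library labelled KO_DRA 8. That library is the highest of the 12 for Ptgs1 and Hpgds and the lowest for Hpgd.

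The promoters of the 3 genes called in wild type lung are shown because Ptgs1 and Hpgds moved against Hpgd. They come from RefSeq on GRCm38.p6 and run from 250 bases before the annotated start to 50 after it, 5′ to 3′ on the gene's strand, with capitals marking motif matches. All 6 genes matched the RefSeq table. On both strands the TATA box core was searched as TATAAA, the GC box as GGGCGG, a STAT6-type palindrome as TTCNNNNGAA, the AP-1 site as TGANTCA and the site of GATA factors as GATAAG, none of which overlapped another here.
Ptgs1, chr2:36230176-36230475, plus strand: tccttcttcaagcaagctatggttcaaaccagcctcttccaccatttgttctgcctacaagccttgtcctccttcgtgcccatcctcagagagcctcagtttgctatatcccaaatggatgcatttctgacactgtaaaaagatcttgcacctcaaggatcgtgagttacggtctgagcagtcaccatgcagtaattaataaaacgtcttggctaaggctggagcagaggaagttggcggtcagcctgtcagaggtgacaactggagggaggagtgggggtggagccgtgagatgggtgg
Hpgds, chr6:65144681-65144980, minus strand: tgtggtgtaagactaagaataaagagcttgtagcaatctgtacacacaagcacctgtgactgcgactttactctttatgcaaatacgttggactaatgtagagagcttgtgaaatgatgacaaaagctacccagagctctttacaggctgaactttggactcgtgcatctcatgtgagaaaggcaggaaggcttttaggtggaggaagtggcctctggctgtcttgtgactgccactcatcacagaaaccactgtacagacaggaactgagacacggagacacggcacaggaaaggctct
Hpgd, chr8:56294302-56294601, plus strand: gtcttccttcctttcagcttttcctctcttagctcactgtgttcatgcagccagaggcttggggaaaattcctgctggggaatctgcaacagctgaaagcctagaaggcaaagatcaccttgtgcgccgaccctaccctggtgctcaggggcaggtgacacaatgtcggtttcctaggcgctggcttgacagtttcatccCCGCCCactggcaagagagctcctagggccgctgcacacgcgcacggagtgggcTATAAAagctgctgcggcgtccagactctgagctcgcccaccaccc
The Hpgd window held 1 TATA box core, which begins 4 bases past the annotated start, and 1 GC box on the opposite strand, from base -50 to base -45. The Ptgs1 and Hpgds windows held none of the 5 motifs in these letters. Among 32851 promoter windows of this length, 13.6% held the TATA box core, 35.7% the GC box, 6.95% the STAT6-type palindrome, 7.81% the AP-1 motif and 7.44% the GATA motif. The windows were 58% G or C for Hpgd, 50.7% for Ptgs1 and 46.7% for Hpgds.

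Ptgs1, the cyclooxygenase made by many cells at rest, was higher with allergen in wild type lung. It had 1527, 1648, 1272, 1401 and 1762 CPM in B6_DRA 3 to 7, against 944.1 and 937.8 CPM in B6_PBS 1 and 2. The lowest B6_DRA library, B6_DRA 5, still lay above both B6_PBS libraries, which were almost equal. The means were 1522 ± 194 CPM in B6_DRA (SD, n = 5) and 941 ± 4.46 CPM in B6_PBS (SD, n = 2). Ptgs1 rose 1.62-fold with an edgeR adjusted p of 0.0276 (log2 fold change 0.69, SE 0.206). Without B6_DRA 5 it rose by 0.75 on the log2 scale, with an edgeR adjusted p of 0.0154. The call was lost without either B6_PBS library (edgeR adjusted p = 0.171 without B6_PBS 1 and 0.124 without B6_PBS 2) and narrowly without B6_DRA 3 or B6_DRA 7 (0.0503 and 0.0515).

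In the libraries labelled KO_DRA the SD of Ptgs1 was 23.6% of the mean, or 15.2% without the library labelled KO_DRA 8, against 12.7% in B6_DRA. The KO_DRA libraries 8 to 12 had 1782, 1045, 1040, 1412 and 1255 CPM. All 5 lay above B6_PBS, the library labelled KO_DRA 8 lay above every B6_DRA library, and KO_DRA 9, 10 and 12 lay below every B6_DRA library. Ptgs1 averaged 1307 ± 308 CPM in KO_DRA and 1522 ± 194 CPM in B6_DRA (SD, n = 5 each), a log2 fold change of -0.22 (95% interval -0.55 to 0.11, adjusted p = 0.477 by edgeR). Without the library labelled KO_DRA 8 the value was -0.36 (95% interval -0.62 to -0.093, adjusted p = 0.0584 by edgeR), with KO_DRA 11 still inside the B6_DRA range. Against B6_PBS the log2 fold change of KO_DRA was 0.47 (adjusted p = 0.165 by edgeR). It was 0.34 without the library labelled KO_DRA 8 (adjusted p = 0.239 by edgeR).

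Macrophage markers moved in part with Ptgs1. Of the 8 monocyte and macrophage markers tested, 6 were higher in B6_DRA than in B6_PBS and none lower, and their summed level was 8616 to 14678 CPM in B6_DRA against 4861 and 4922 CPM in B6_PBS. In KO_DRA the sum was 6127 to 14770 CPM, the highest being the library labelled KO_DRA 8 and the others reaching 9297 CPM at most. None of the 8 passed the test in KO_DRA against B6_DRA. Without that library 5 were lower, against 13.6% of all probes tested. Of the 6 alveolar macrophage markers, 2 were higher in B6_DRA than in B6_PBS. The others were not called and went both ways, among them Marco (log2 fold change -1.54), Siglecf (0.17) and Fabp4 (1.15). The sum of all 6, most of it Chil3, was 34410 to 243635 CPM in B6_DRA against 11612 and 12928 CPM in B6_PBS. It thus says little of the rest of the list. Pf4, the platelet marker, did not pass the test, at 233 to 307 CPM in B6_DRA and 257 and 354 CPM in B6_PBS. The part of these cells in the Ptgs1 result was not tested.

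Ptgs2, the inducible cyclooxygenase, showed no detectable difference between groups. It had 153, 336, 205, 227 and 136 CPM in B6_DRA 3 to 7, against 197 and 250 CPM in B6_PBS 1 and 2. B6_DRA reached both above and below the 2 B6_PBS libraries, and B6_DRA 4 was the highest of all 12. The log2 fold change was -0.070 (95% interval -0.70 to 0.56, adjusted p = 0.860 by edgeR), and it was 0.016 when libraries were scaled by the housekeeping probes. KO_DRA 8 to 12 had 235, 202, 272, 203 and 222 CPM, all inside the B6_DRA range. KO_DRA differed from B6_DRA by 0.090 on the log2 scale, with a 95% interval of -0.39 to 0.57 (edgeR adjusted p = 0.825). Its KO_DRA libraries spanned 1.34-fold and its B6_DRA libraries 2.46-fold.

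Other genes of the early stress response were listed beside Ptgs2. Of the 9 tested, 5 were called lower in B6_DRA than in B6_PBS, against 17.7% of all probes tested, and none was called higher. The 5 were Fosb, an AP-1 subunit, with a log2 fold change of -1.62, Jun (-0.79), Ier3 (-0.69), Cyr61 (-0.88) and Gadd45b (-0.60). Of those not called, Dusp1 (-0.97) and Nr4a1 (-0.70) were also negative, while Egr2 (0.36) and Atf3 (0.41) were positive. Whether Ptgs2 differs from these genes was not tested. In KO_DRA against B6_DRA none of the 9 passed the test. Without the library labelled KO_DRA 8, 3 were higher, against 4.52% of all probes tested.

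Hpgds, which makes PGD2 in mast cells, Th2 cells and some macrophages, was higher with allergen in wild type lung. It had 94.7, 94.7, 76.2, 58.0 and 95.1 CPM in B6_DRA 3 to 7, against 50.2 and 47.4 CPM in B6_PBS 1 and 2. B6_DRA 6 was the lowest of its group and lay only a little above B6_PBS, and the groups did not overlap. These are low counts, 23 to 53 in B6_DRA and 26 and 25 in B6_PBS, though each lay above the background line (negative controls of its library, mean plus 2 SD). Hpgds averaged 83.7 ± 16.5 CPM in B6_DRA (SD, n = 5) and 48.8 ± 2.004 CPM in B6_PBS (SD, n = 2), a rise of 1.72-fold (log2 fold change 0.78, SE 0.281, adjusted p = 0.0436 by edgeR). Without B6_DRA 5 the log2 rise was 0.81, with an edgeR adjusted p of 0.0402.

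The Hpgds call sat close to the threshold. It was lost with limma-voom (adjusted p = 0.0522), with edgeR and no filter on low counts (0.0514), with edgeR after background subtraction (0.0552), and when libraries were scaled on their total less Chil3, Chil4 and Retnla (0.0774 by edgeR). It was also lost without B6_PBS 1, B6_PBS 2, B6_DRA 3, B6_DRA 4 or B6_DRA 7, with edgeR adjusted p-values from 0.0744 to 0.188.

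In the libraries labelled KO_DRA, Hpgds had 98.0, 74.9, 48.5, 66.0 and 66.7 CPM in KO_DRA 8 to 12. The library labelled KO_DRA 8 was again the highest of all 12, and KO_DRA 10 lay between the 2 B6_PBS libraries. KO_DRA differed from B6_DRA by -0.24 on the log2 scale (95% interval -0.69 to 0.20, adjusted p = 0.5261 by edgeR), and by -0.39 without the library labelled KO_DRA 8 (95% interval -0.81 to 0.032, adjusted p = 0.163 by edgeR). Against B6_PBS the value was 0.53 (adjusted p = 0.207 by edgeR), and 0.39 without the library labelled KO_DRA 8 (adjusted p = 0.351 by edgeR).

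Markers of cells that use Hpgds moved in part. Of the 6 mast cell markers tested, none passed the test. In B6_DRA against B6_PBS they went both ways, from a log2 fold change of -0.49 (Cma1) to 1.57 (Tpsb2). Tpsb2, a mast cell tryptase gene, was higher in every B6_DRA library than in B6_PBS and missed the threshold narrowly (adjusted p = 0.0537 by edgeR). The sum of all 7 on the panel, the untested Ms4a2 included, was 713 to 995 CPM in KO_DRA (835 to 995 CPM without the library labelled KO_DRA 8), 832 to 1065 CPM in B6_DRA, and 902 and 928 CPM in B6_PBS. Of the 6 Th2 and innate lymphoid markers, 3 were called higher in B6_DRA than in B6_PBS, against 24.1% of all probes tested. Among them were Il1rl1, the IL-33 receptor, with a log2 fold change of 1.86, and Il13 with 2.39. The others were not called and ran from -0.42 (Gata3) to 2.25 (Il4). The sum of all 7 on the panel, the untested Il5 included, was 427 to 688 CPM in KO_DRA, 519 to 801 CPM in B6_DRA, and 320 and 429 CPM in B6_PBS, and Il5 was at or below background in every library. The part of these cells in the Hpgds result was not tested.

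Hpgd, the breakdown enzyme, spanned the widest range of the 6 genes over the 12 libraries, 3.93-fold. It had 6363, 8611, 11603, 6714 and 6029 CPM in B6_DRA 3 to 7, against 17058 and 16090 CPM in B6_PBS 1 and 2. Every B6_DRA library lay below both B6_PBS libraries, and B6_DRA 5 was the highest of its group. Hpgd averaged 7864 ± 2317 CPM in B6_DRA (SD, n = 5) and 16574 ± 684 CPM in B6_PBS (SD, n = 2). It was 0.475 times the B6_PBS level (log2 fold change -1.08, SE 0.361, 95% interval -1.86 to -0.29, adjusted p = 0.0349 by edgeR), and without B6_DRA 5 the log2 fold change was -1.26 (adjusted p = 0.0154 by edgeR).

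The Hpgd fold change was negative under each scaling, filter and tool tried and with each library left out, from -1.64 to -0.99 on the log2 scale. The call itself was lost without either B6_PBS library (edgeR adjusted p = 0.1798 and 0.1167), without B6_DRA 3, 4, 6 or 7 (0.0541 to 0.0689), and with limma on the authors' scaled values (0.0521).

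In the libraries labelled KO_DRA, Hpgd had 4339, 13417, 13906, 10029 and 9772 CPM in KO_DRA 8 to 12. The library labelled KO_DRA 8 was the lowest of all 12, KO_DRA 9 and 10 lay above every B6_DRA library, and all 5 lay below both B6_PBS libraries. KO_DRA averaged 10292 ± 3828 CPM and B6_DRA 7864 ± 2317 CPM (SD, n = 5 each), a log2 fold change of 0.39 (95% interval -0.24 to 1.012, adjusted p = 0.503 by edgeR). Without the library labelled KO_DRA 8 it was 0.58 (95% interval 0.14 to 1.02, adjusted p = 0.0608 by edgeR), and without B6_DRA 5 it was 0.57 (adjusted p = 0.222 by edgeR). KO_DRA against B6_PBS gave -0.69 (95% interval -1.49 to 0.11, adjusted p = 0.210 by edgeR). Without the library labelled KO_DRA 8 that value was -0.49 (adjusted p = 0.270 by edgeR).

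Endothelial markers and Cdh1, the only epithelial marker of its list on the panel, moved the same way as Hpgd, and fibroblast markers did so in part. All 3 endothelial markers tested, Cdh5, Tek and Flt1, were lower in B6_DRA than in B6_PBS, with log2 fold changes of -0.943, -0.998 and -0.946, and so was Cdh1, the epithelial cadherin, with -0.55. The summed endothelial level was 3311 to 7791 CPM in KO_DRA (5642 to 7791 CPM without the library labelled KO_DRA 8), 3544 to 6035 CPM in B6_DRA, and 7815 and 9007 CPM in B6_PBS. Cdh1 had 2493 to 3702 CPM in KO_DRA (3159 to 3702 CPM without that library), 2414 to 3010 CPM in B6_DRA, and 3755 and 3910 CPM in B6_PBS. In KO_DRA against B6_DRA none of these 4 passed the test. Without the library labelled KO_DRA 8, 2 of the 3 endothelial markers and Cdh1 were higher, against 4.52% of all probes tested. Of 3 fibroblast markers 1 was lower in B6_DRA than in B6_PBS, Pdgfra (log2 fold change -0.86), while Pdgfrb (-0.61) and Col3a1 (-0.15) were not called. The part of these cells in the Hpgd result was not tested.

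Ptger2, the EP2 receptor for PGE2, varied least, spanning 1.47-fold over the 12 libraries. It had 70.5, 78.6, 76.2, 90.7 and 82.4 CPM in B6_DRA 3 to 7, against 61.8 and 68.2 CPM in B6_PBS 1 and 2. The groups did not overlap, though B6_PBS holds only 2 libraries and every library rests on only 26 to 44 counts. The log2 fold change was 0.29 (95% interval -0.14 to 0.72, adjusted p = 0.237 by edgeR), and -0.36 when libraries were scaled by their total alone. KO_DRA 8 to 12 had 75.2, 71.2, 67.9, 70.7 and 80.1 CPM, which overlapped both other groups. The means were 73.0 ± 4.74 CPM in KO_DRA, 79.7 ± 7.54 CPM in B6_DRA (SD, n = 5 each) and 65.0 ± 4.54 CPM in B6_PBS (SD, n = 2). KO_DRA differed from B6_DRA by -0.13 on the log2 scale (95% interval -0.46 to 0.21, adjusted p = 0.643 by edgeR).

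Ptgdr2, the CRTH2 receptor for PGD2, sat near the detection limit. It had 52.4, 30.4, 43.9, 17.6 and 25.4 CPM in B6_DRA 3 to 7, from 26, 17, 19, 7 and 8 counts, against 57.9 and 28.4 CPM in B6_PBS 1 and 2, from 30 and 15 counts. B6_DRA 6 lay below the background line, the only library of the 12 to do so, and the B6_PBS libraries differed from each other by 2.04-fold. The log2 fold change was -0.32 (95% interval -1.19 to 0.55, adjusted p = 0.519 by edgeR), and 0.26 without B6_PBS 1. KO_DRA 8 to 12 had 22.8, 44.9, 38.8, 40.1 and 42.7 CPM, inside the B6_DRA range. The means were 37.9 ± 8.76 CPM in KO_DRA, 33.9 ± 14.1 CPM in B6_DRA (SD, n = 5 each) and 43.2 ± 20.9 CPM in B6_PBS (SD, n = 2). The difference from B6_DRA was 0.14 on the log2 scale (95% interval -0.55 to 0.83, adjusted p = 0.817 by edgeR). Without the library labelled KO_DRA 8 it was 0.27 (adjusted p = 0.560 by edgeR), and the SD of KO_DRA was then 2.75 CPM.

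Eosinophil markers rose in the same wild type libraries, without a call for Ptgdr2. Of the 5 tested, 4 were higher in B6_DRA than in B6_PBS, among them Prg2, the granule major basic protein (log2 fold change 4.14), and Ccr3, the eotaxin receptor (3.37). The sum of all 7 on the panel, the untested Epx and Rnase2b included, was 454 to 3393 CPM in KO_DRA, 1551 to 7730 CPM in B6_DRA, and 332 and 343 CPM in B6_PBS, and Epx was at or below background in all libraries. Without the library labelled KO_DRA 8 the highest KO_DRA sum was 1334 CPM. In KO_DRA against B6_DRA none of the 5 passed the test. Without that library 3 were lower, against 13.6% of all probes tested. They were Prg2 (log2 fold change -1.94), Rnase2a (-3.45) and Ccr3 (-1.37). None of the 4 neutrophil markers tested passed the test, nor did Cd28, the T cell marker.

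**Figure D2:**
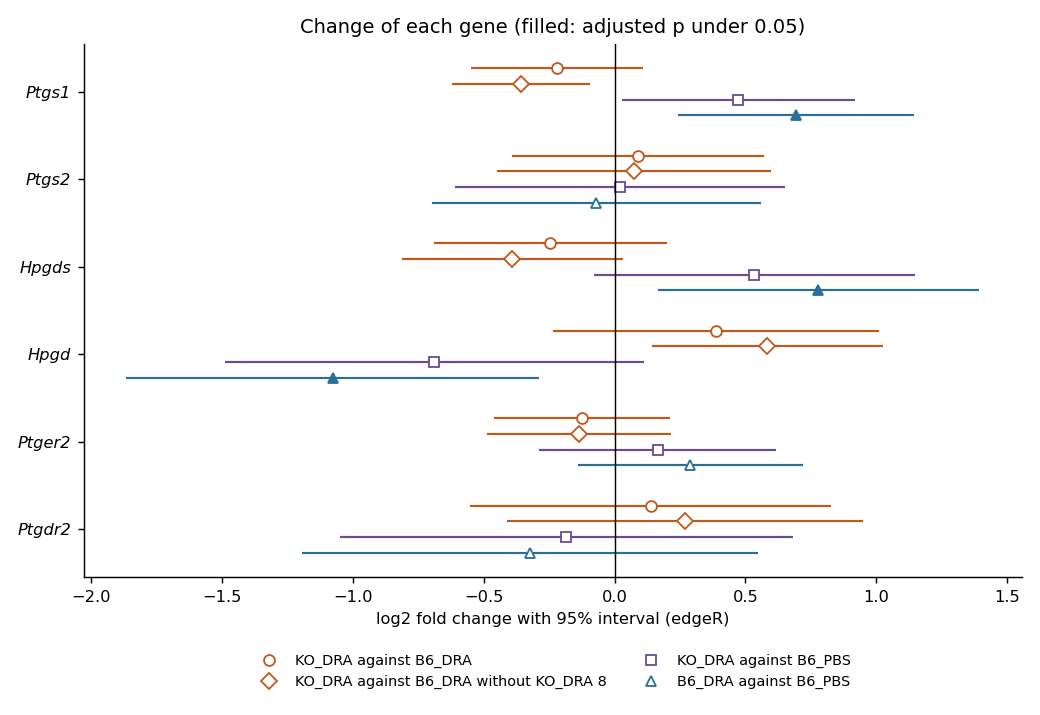
Log2 fold change (points) with its 95% interval (lines) from edgeR for each gene in KO_DRA against B6_DRA, the same without the library labelled KO_DRA 8, KO_DRA against B6_PBS, and B6_DRA against B6_PBS; filled points have an adjusted p under 0.05. Filled points appear for Ptgs1, Hpgds and Hpgd in B6_DRA against B6_PBS and nowhere else.

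Scaling moved the allergen values of all 6 genes together. When libraries were scaled by their total alone, the median of all probes in B6_DRA against B6_PBS fell by 0.63 on the log2 scale, and Ptgs1 then stood at 0.037 (adjusted p = 0.899 by edgeR), Hpgds at 0.13 (adjusted p = 0.747) and Hpgd at -1.64 (adjusted p = 0.0286). With the total less Chil3, Chil4 and Retnla the median was -0.16, Ptgs1 0.52 and Hpgd -1.22. With the housekeeping probes the median was 0.080, Ptgs1 0.77, Hpgds 0.85 and Hpgd -0.999. With the authors' scaled values the median was 0.092 and Ptgs1 0.776. The plot of the allergen change by scaling shows these values for all 6 genes.

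**Figure D3:**
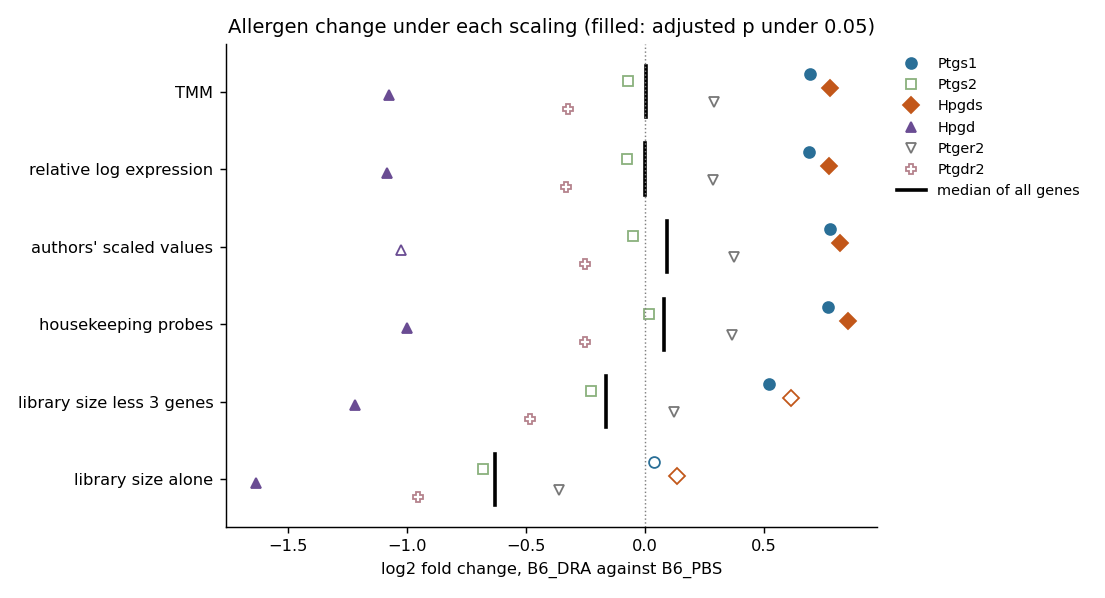
Log2 fold change of each gene in B6_DRA against B6_PBS under 6 scalings, with a black bar at the median of all probes tested; filled points have an adjusted p under 0.05 by edgeR, or by limma for the authors' scaled values. With library size alone the median lies at -0.63, and Ptgs1 and Hpgds lie near 0 and are not filled.

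A ratio of counts inside 1 library does not depend on the scaling, so the synthesis genes were also set against Hpgd. Per 100 Hpgd counts, Ptgs1 had 24.0, 19.1, 10.96, 20.9 and 29.2 counts in B6_DRA 3 to 7, against 5.53 and 5.83 counts in B6_PBS 1 and 2. Every B6_DRA library lay above both B6_PBS libraries, and the mean log2 ratio was higher by 1.80, which is 3.49-fold. For Hpgds the ratio was 0.657 to 1.58 per 100 Hpgd counts in B6_DRA and 0.294 in both B6_PBS libraries, 3.67-fold higher without overlap. For Ptgs2 it was 1.77 to 3.90 in B6_DRA, against 1.15 and 1.55 in B6_PBS, 1.97-fold higher without overlap. Ptgs2 itself did not pass the test (log2 fold change -0.070), so its ratio restates the lower Hpgd (-1.08). The Ptgs1 and Hpgds ratios likewise join changes already given above.

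In KO_DRA 8 to 12 the Ptgs1 ratio was 41.1, 7.79, 7.48, 14.1 and 12.8 per 100 Hpgd counts. All 5 exceeded B6_PBS, and the library labelled KO_DRA 8 exceeded every other library. The mean log2 ratio differed from B6_DRA by -0.57, or by -0.97 without the library labelled KO_DRA 8, and the groups overlapped either way. Hpgds against Hpgd differed by -0.58 with that library and -0.99 without it, and Ptgs2 against Hpgd by -0.16 and -0.46. These ratios are given as descriptions, since the genes were chosen with earlier results known.

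**Figure D4:**
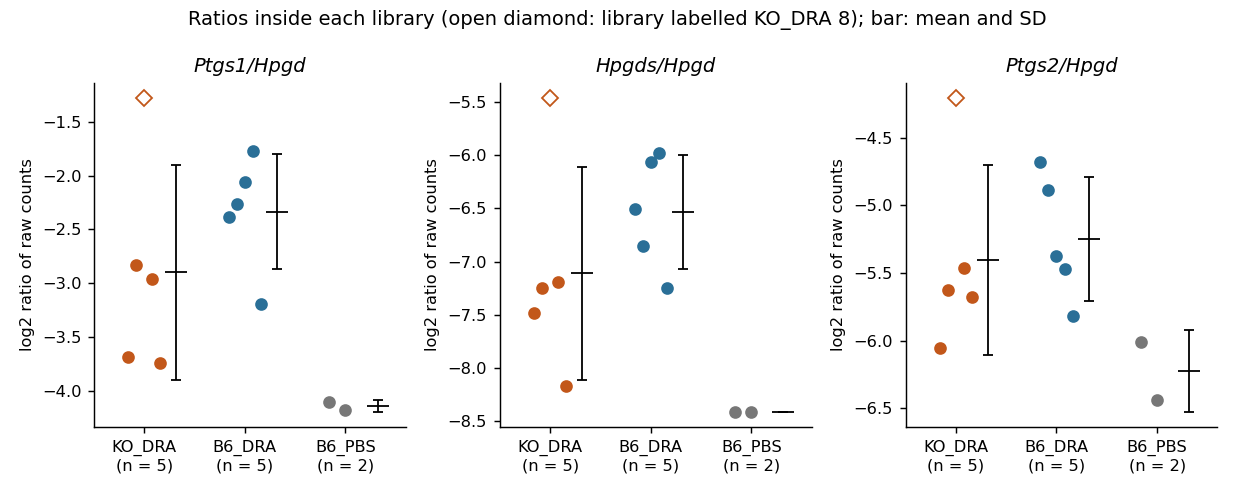
Log2 ratio of raw counts of Ptgs1, Hpgds and Ptgs2 to Hpgd inside each library of KO_DRA (n = 5), B6_DRA (n = 5) and B6_PBS (n = 2), with mean and SD; the open diamond is the library labelled KO_DRA 8. All B6_DRA points lie above both B6_PBS points in all 3 ratios, and the open diamond is the highest point in each.

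Across the 12 libraries Ptgs1 and Hpgd ran opposite to each other, with Pearson's r of -0.93 and Spearman's rho of -0.93 on log2 CPM. With each group's mean removed the r was -0.87, and without the 2 libraries farthest from the median of Hpgd, the library labelled KO_DRA 8 and B6_PBS 1, it was -0.90. Ptgs1 and Hpgds ran together (r = 0.85, and 0.70 with group means removed), and Hpgds and Hpgd ran opposite (r = -0.76, -0.57 with group means removed, and -0.66 without those 2 libraries). Ptgs2 had r from -0.29 to 0.26 with the others, and its r with Hpgd was 0.51 without those 2 libraries. Ptger2 and Ptgdr2, both of low counts, also ran opposite (r = -0.70, and -0.76 with group means removed). The points share their library's scaling and composition, and the values are descriptions over 12 libraries. The share of other probe pairs with such values is not given, so they are not a result particular to these genes. In the plot of Ptgs1 against Hpgd the libraries line up from the library labelled KO_DRA 8, at high Ptgs1 and low Hpgd, through most of B6_DRA, then B6_DRA 5 and KO_DRA 9 to 12, to B6_PBS at the other end.

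**Figure D5:**
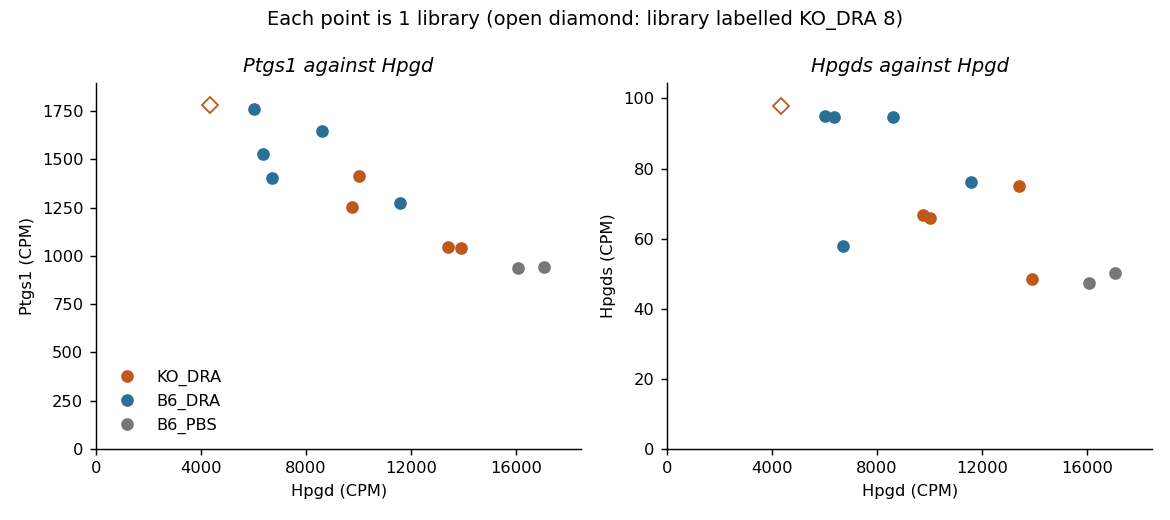
Ptgs1 (left) and Hpgds (right) in CPM against Hpgd in CPM, 1 point per library, both axes linear from 0; the open diamond is the library labelled KO_DRA 8. B6_PBS lies at the highest Hpgd, at 16090 and 17058 CPM, with the lowest Ptgs1, and KO_DRA 9 and 10 lie nearest to it.

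The probes most like each gene over the 12 libraries were taken by Pearson's r on log2 CPM. For Ptgs1 these were Ccl17, a chemokine that draws Th2 cells (r = 0.96), Ccl6, a macrophage and eosinophil chemokine (0.96), and Mrc1, the macrophage mannose receptor (0.96), and each stayed at 0.92 with group means removed. For Hpgd they were F11r, the junctional adhesion molecule of epithelium and endothelium (0.98), Bmp6 (0.97) and the collagen gene Col12a1 (0.97), at 0.96 to 0.97 with group means removed. For Hpgds they were Il4i1 (0.89), Irf4 (0.88) and Ccl12 (0.87), at 0.76 to 0.84 with group means removed. Ptger2 was most like Alox5 (0.90), Il5ra (0.88) and Cxcl5 (0.86), which fell to 0.68 to 0.80 with group means removed. The highest values were lower for Ptgdr2, with Mapk11 (0.79), Cxcl12 (0.76) and Nox1 (0.72). They were also lower for Ptgs2, with Nfkbiz (0.71), Il18 (0.69) and Kcnq1ot1 (0.67). With group means removed the values were 0.72 to 0.79 for Ptgdr2 and 0.67 to 0.74 for Ptgs2. All are the highest among the probes tested, so the choice itself raises them.

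The panel held 11 other eicosanoid genes, of which 9 were tested, while Ptgds and Ltb4r2 did not pass the filter. Of the 9, 5 were higher in B6_DRA than in B6_PBS and none lower, with a median log2 fold change of 0.61. Alox15, a lipoxygenase of alternatively activated macrophages, rose most of these, with 226 to 766 CPM in B6_DRA against 23.2 and 34.1 CPM in B6_PBS. The change was 17.1-fold with a wide 95% interval of 3.83 to 76.5 (adjusted p = 0.0171 by edgeR). Ptgdr, the other PGD2 receptor (DP1), had 27.7 to 60.2 CPM in B6_DRA, from at most 24 counts, against 13.3 and 15.4 CPM in B6_PBS. It rose 2.90-fold (95% interval 1.34 to 6.26, adjusted p = 0.0344 by edgeR). Both B6_PBS levels lay below 28.4 CPM, which was 15 counts of Ptgdr2 in B6_PBS 2. The Ptgdr fold change thus rests on few counts in B6_PBS 1 and 2, where the background lines were 6.41 and 6.57 counts. Of the leukotriene genes, Alox5, which starts their synthesis, rose 1.59-fold, its activating protein gene Alox5ap 1.49-fold, and the cysteinyl leukotriene receptor gene Cysltr1 1.69-fold, with edgeR adjusted p-values of 0.0156, 0.0204 and 0.0138. Cbr1, Lta4h, Ltb4r1 and Pparg did not pass the test. With scaling by the total alone 1 of the 9 was called, and without either B6_PBS library none was.

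None of these 9 passed the test in KO_DRA against B6_DRA, where their median log2 fold change was -0.25. Without the library labelled KO_DRA 8, 3 were lower and none higher, against 13.6% and 4.52% of all probes tested. Alox15 then had 52.4 to 222 CPM in KO_DRA against 226 to 766 CPM in B6_DRA, without overlap (log2 fold change -1.90, adjusted p = 0.0419 by edgeR). Ptgdr had a log2 fold change of -0.90 (adjusted p = 0.0493 by edgeR) and Cysltr1 of -0.44 (adjusted p = 0.0426 by edgeR). Against B6_PBS none of the 9 passed in KO_DRA, with or without that library.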

How the data were processed

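Per the deposited tables, the authors gave raw whole-number counts per probe for 734 endogenous, 20 housekeeping, 8 negative and 6 positive control probes. A second deposited table holds a signal scaled by the authors, the same counts times 1 factor per library, and was used as an alternative. How background was handled at export is not given in the sources used here. R 4.2.0, edgeR and limma are named per the submitters' processing notes, without roles.

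The test was edgeR 4.0.16 (R 4.3.3), fitted on the raw counts of the endogenous and housekeeping probes together. Probes were kept by filterByExpr (minimum count 10, minimum total 15), and TMM factors were used. Of the probes kept, the 665 endogenous ones were tested. A single quasi-likelihood model took in all 12 libraries with group means as its terms (9 residual degrees of freedom), two-sided, with Benjamini-Hochberg adjustment over the probes tested and a threshold of 0.05. Standard errors and 95% intervals were derived from the fit's p-values. CPM use TMM-scaled totals, and log2 CPM a prior count of 2. The fit was tested on simulated data. Alternatives used DESeq2 1.42.0, limma 3.58.1, other scalings and filters, and each library left out.

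The 6 genes, the eicosanoid list and the marker lists were chosen with earlier results of these data known, so their counts are descriptions. Named genes were the 6, the 3 probes with the highest r to each over 12 libraries, and listed genes past the test. Listed genes that missed the test or were not tested, such as Pf4 or Ptgds, were named outside that rule, with their values seen. The labels name mice but no separate preparation, so the p-values reflect the spread between these samples, which may be technical in part. All deposited sample columns matched a sample by name. Promoters came from the RefSeq table of GRCm38.p6, used for sequences alone.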

Additional observations from a re-analysis of the deposited data

Results flagged for a closer look

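A value far from the rest of its group was looked for in 18 sets of 5 libraries, the 6 genes and the 3 ratios to Hpgd in KO_DRA and in B6_DRA. Of these, 1 held such a value, and chance gives about 1 in 20. Ptgdr2, the CRTH2 receptor gene, was 22.8 CPM in the library labelled KO_DRA 8, against 38.8 CPM in the nearest KO_DRA library. It rests on 10 counts in that library, whose background line was 8.96 counts. The same library carried the highest Chil4 count of the 12, at 111850.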

How the results depend on the processing

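No paired analysis was made, because the sample names give no litter or other pairing of mice between the groups. Of the alternative fits of single genes, 302 kept direction and side of the threshold, 22 lost a call and 18 turned sign, and no turned value had passed the test. All 22 losses fell on the 3 genes called in B6_DRA against B6_PBS, Ptgs1, Hpgds and Hpgd, most often on Hpgds. Only those 3 results had a call to lose, so the 302 do not show how firm the calls are. Leaving out 1 library at a time, the probes called in B6_DRA against B6_PBS ran from 0 to 344 (0 without B6_PBS 1 or B6_PBS 2, 128, 176, 158 and 136 without B6_DRA 3, 4, 6 and 7, and 344 without B6_DRA 5), the prostaglandin genes called from 0 to 3, and the other eicosanoid genes from 0 to 5. In KO_DRA against B6_DRA the ranges were 0 to 120 probes, 120 without KO_DRA 8, and 0 to 3 other eicosanoid genes. In KO_DRA against B6_PBS they were 0 to 79 and 0 to 1, with 0 probes without B6_PBS 1, B6_PBS 2, KO_DRA 11 or KO_DRA 12, 2 without KO_DRA 9, 9 without KO_DRA 8 and 79 without KO_DRA 10. With library size alone, 1 prostaglandin gene and 1 other eicosanoid gene were called in B6_DRA against B6_PBS, and KO_DRA against B6_PBS had 4 probes called. That last count was 13 with the size less Chil3, Chil4 and Retnla, 56 with DESeq2 (1 other eicosanoid gene), 13 with limma-voom and 0 with only the 2 groups compared, beside 20 in the fit reported. DESeq2 called 1 probe in KO_DRA against B6_DRA. The split of B6_DRA against B6_PBS was 160 higher and 118 lower, but 57 and 222 with library size alone, 138 and 161 with the size less those 3 genes, 163 and 72 with housekeeping probes and 169 and 61 with the authors' scaled values.

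Turned signs, none of them called, were as follows on the log2 scale. In B6_DRA against B6_PBS, Ptgs2 was 0.016 with housekeeping probes and -0.31 to 0.085 with 1 library left out, Ptger2 -0.36 with library size alone, and Ptgdr2 -0.78 to 0.26 with 1 library left out. In KO_DRA against B6_DRA, library size alone gave 0.074 for Ptgs1, 0.041 for Hpgds and 0.21 for Ptger2, and leaving out 1 library gave -0.026 to 0.32 for Ptgs2 and -0.019 to 0.35 for Ptgdr2. In KO_DRA against B6_PBS, Ptgs2 was -0.28 with library size alone, -0.068 with the size less 3 genes and -0.15 to 0.18 with 1 library left out, Ptger2 -0.15 with library size alone, and Ptgdr2 -0.63 to 0.40 with 1 library left out. The causes were not tested. B6_PBS holds only 2 libraries. Hpgds, Ptger2 and Ptgdr2 have at most 53 counts in any library, and Ptgdr2 lay below the background line in 1.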
